A study of Rattus norvegicus with 36 samples.

Results

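The immediate early transcription factor genes of the Egr, Nr4a and Fos families were followed through 36 rat lung RNA sequencing libraries. A list of 10 names chose them (Egr1, Egr2, Egr3, Egr4, Nr4a1, Nr4a2, Nr4a3, Fos, Fosb and Junb), matched to the gene names of the count table. Of these, 8 had a row among 27308 genes and 7 passed the filter on low counts, as did 15570 genes in all. Egr4 had a row but too few counts to be tested, and the levels of Fosb and Junb were not analysed here.

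All rats were of the genotype HuSlc39a12, a Sprague Dawley knock-in whose Slc39a12 gene, which encodes the zinc importer ZIP12, was replaced by the human one. One arm breathed 10% oxygen at normal pressure for 2 weeks and was injected intraperitoneally with the ZIP12 antibody APL-9796 at 10 mg/kg. A second arm had the same hypoxia and an IgG control antibody at the same dose, and in both arms dosing began 48 h before hypoxia and was repeated every 3 days. The third arm stayed in normoxia with no antibody named, and against it the effects of low oxygen and of IgG cannot be told apart. Animals were age-matched adults of 200 to 240 g, and each arm had 12 libraries, 6 from males and 6 from females. Whether every library is its own animal is not said in the labels, and the tests weigh differences against library-to-library spread, which may be technical.

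Immediate early genes are switched on within minutes of a stimulus without new protein synthesis, through factors such as SRF and CREB that already sit at their promoters, and their messages are short-lived. Egr proteins are zinc finger factors that bind GC-rich sites, Nr4a proteins are orphan nuclear receptors whose activity follows their abundance, and Fos pairs with Jun proteins to form AP-1. In the lung they respond to stretch, growth factors, hormones acting through cAMP, and injury.

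The sequences just before the gene starts are shown because 2 of the members carry the same pair of regulatory motifs at the same distance. RefSeq windows of 250 bases upstream of the start (assembly GRCr8) were at hand for 5 of the 8 members with a row, and 4 are printed. They lie at chr18:26736828-26737077 on the plus strand for Egr1, chr20:21054442-21054691 on the minus strand for Egr2, chr4:119607818-119608067 on the minus strand for Egr4 and chr7:134259888-134260137 on the plus strand for Nr4a1. The Egr2 and Nr4a1 windows belong to a start that is not the outermost of the gene, as does the Nr4a2 window, which is not printed. Capitals mark the CArG box, the site of SRF, and the half-site of the cAMP response element, the site of CREB (TGACG, or CGTCA on the other strand, which is also contained in the full element).
Egr1: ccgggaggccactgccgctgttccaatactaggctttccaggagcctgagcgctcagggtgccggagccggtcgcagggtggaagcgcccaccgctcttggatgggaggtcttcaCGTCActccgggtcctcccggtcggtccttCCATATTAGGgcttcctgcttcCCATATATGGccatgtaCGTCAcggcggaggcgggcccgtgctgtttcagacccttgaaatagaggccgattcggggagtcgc
Egr2: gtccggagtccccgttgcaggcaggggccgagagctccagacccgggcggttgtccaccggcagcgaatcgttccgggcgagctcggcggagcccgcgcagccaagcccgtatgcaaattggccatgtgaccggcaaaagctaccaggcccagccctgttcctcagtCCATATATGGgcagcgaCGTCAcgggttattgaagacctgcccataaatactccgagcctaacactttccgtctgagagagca
Egr4: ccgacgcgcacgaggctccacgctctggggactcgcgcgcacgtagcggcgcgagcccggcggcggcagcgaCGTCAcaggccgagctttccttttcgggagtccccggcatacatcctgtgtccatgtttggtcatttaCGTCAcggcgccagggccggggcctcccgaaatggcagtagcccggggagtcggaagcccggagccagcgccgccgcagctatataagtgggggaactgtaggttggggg
Nr4a1: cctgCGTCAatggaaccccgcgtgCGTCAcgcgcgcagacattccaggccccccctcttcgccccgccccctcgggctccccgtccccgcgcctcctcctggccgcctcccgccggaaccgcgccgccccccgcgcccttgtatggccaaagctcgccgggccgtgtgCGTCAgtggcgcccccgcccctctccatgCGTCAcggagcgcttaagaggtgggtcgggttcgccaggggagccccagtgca
A CArG box was found 2 times in the Egr1 window and once in the Egr2 window, and in 1.497% of 33469 rat windows of this length. In both genes a box spelled CCATATATGG lay 83 to 74 bases before the start, and a CGTCA half-site lay 66 to 62 bases before it. The half-site was present in 5 of 5 windows of members with a row, Nr4a2 included, and in 18.22% of all windows, with 4 copies in Nr4a1 and 2 in Egr4. The windows of Fosb and Junb, named by the rule but without a row, held 0 and 1 half-sites. The full element TGACGTCA was in 0 of the 5 windows (1.587% of all). The Egr site GCGNGGGCG, read on both strands, was in the Nr4a1 window (4.291% of all). The NBRE, the Nr4a site AAAGGTCA on either strand, was in 0 of 5 (415 of all 33469). These are letter matches in short windows and no binding was measured.

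Totals ran from 6.07 to 20.8 M counts per library, with a median of 11.1 M. Levels are CPM, each count scaled to its TMM-adjusted library size, and are compared between libraries, not between genes, since no gene lengths were used. Libraries were assigned to 3 sequencing runs by the parts of their read file names taken as pool and flow cell, with 26 libraries in run A, 9 in run B and 1 in run C. Run A held 5, 5 and 6 of 6 male libraries with APL-9796, with IgG and in normoxia, and 5, 2 and 3 of 6 female ones. Of 8 alveolar type II markers, which mark lung tissue, 5 had a row and all 5 were above 0 in every library. Single libraries stood far apart for the members, above all male APL-9796 library 6 and male normoxic libraries 2, 3 and 5. Values without male APL-9796 library 6 are given beside the results that it moved most.

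Egr3, an Egr factor known from activated neurons and T cells, varied most among the members. In the APL-9796 arm it ran from 4.60 to 84.4 CPM with a median of 16.6 CPM, in the IgG arm from 5.59 to 23.2 CPM with a median of 11.4 CPM, and in normoxia from 2.39 to 74.3 CPM with a median of 10.8 CPM. The 3 arms overlapped widely, and the high ends were single male libraries. Its 4 highest libraries of the 36 were male APL-9796 6 at 84.4 CPM and male normoxic 2, 3 and 5 at 74.3, 53.4 and 39.4 CPM. The lowest was female normoxic 8 at 2.39 CPM, the only library of run C.

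Egr1, the best-known Egr factor and an early mark of growth factor and stretch signals, had the same high libraries. It ran from 77.7 to 676 CPM in the APL-9796 arm with a median of 115 CPM, from 57.8 to 169 CPM in the IgG arm with a median of 103 CPM, and from 50.6 to 678 CPM in normoxia with a median of 136 CPM. Male APL-9796 6 and male normoxic 2 stood at 676 and 678 CPM, male normoxic 3 at 609 CPM and male normoxic 5 at 356 CPM, while every other library was at or below 191 CPM. Egr2, needed for myelin in Schwann cells and active in T cells and macrophages, was low, with medians of 1.83, 1.61 and 1.71 CPM in the APL-9796, IgG and normoxic arms and a highest value of 8.02 CPM in male APL-9796 6.

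Egr4 was close to undetected. It had 24 counts in the APL-9796 arm, 6 in the IgG arm and 8 in normoxia, and 12 of 36 libraries had any count. Of the 24 counts, 18 came from male APL-9796 6, and without that library the arm had 6 counts. The ratio of pooled levels in the APL-9796 arm to the IgG arm was 4.33 (exact 95% interval 1.73 to 12.96, counting error only). That interval does not cover the spread between libraries, and the pooled level was 0.187 CPM with male APL-9796 6 and 0.0512 CPM without it.

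Nr4a1 (Nur77), a receptor induced by growth factors and inflammatory signals and known in endothelium and macrophages, ran from 98.3 to 521 CPM in the APL-9796 arm, from 67.9 to 215 CPM in the IgG arm and from 49.9 to 529 CPM in normoxia. Its medians were 148, 142 and 114 CPM in that order. The highest values again fell in male APL-9796 6 and male normoxic 2, 3 and 5. Nr4a3 (NOR-1), known from vascular smooth muscle, ran from 6.53 to 68.8 CPM in the APL-9796 arm with a median of 13.995 CPM, from 6.24 to 21.6 CPM in the IgG arm with a median of 10.0 CPM, and from 2.85 to 39.6 CPM in normoxia with a median of 6.38 CPM.

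Nr4a2 (Nurr1), best known for dopaminergic neurons, was the steadiest member. It ran from 12.6 to 23.3 CPM in the APL-9796 arm with a median of 17.3 CPM, from 11.6 to 18.9 CPM in the IgG arm with a median of 13.5 CPM, and from 7.64 to 18.3 CPM in normoxia with a median of 11.9 CPM. The medians stood in that order, highest first, in both sexes, and the ranges of the arms overlapped. Male APL-9796 6 was again the highest library at 23.3 CPM, but male normoxic 5, among the highest for Egr1, Egr3, Nr4a1 and Nr4a3, had only 10.2 CPM.

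Fos, the AP-1 subunit, ran from 39.004 to 290 CPM in the APL-9796 arm with a median of 81.5 CPM. In the IgG arm it ran from 38.9 to 126 CPM with a median of 79.2 CPM, and in normoxia from 25.5 to 419 CPM with a median of 87.7 CPM. The 6 male IgG libraries lay close together, between 75.4 and 92.1 CPM, whereas male normoxic libraries ran from 74.6 to 419 CPM.

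**Figure D1:**
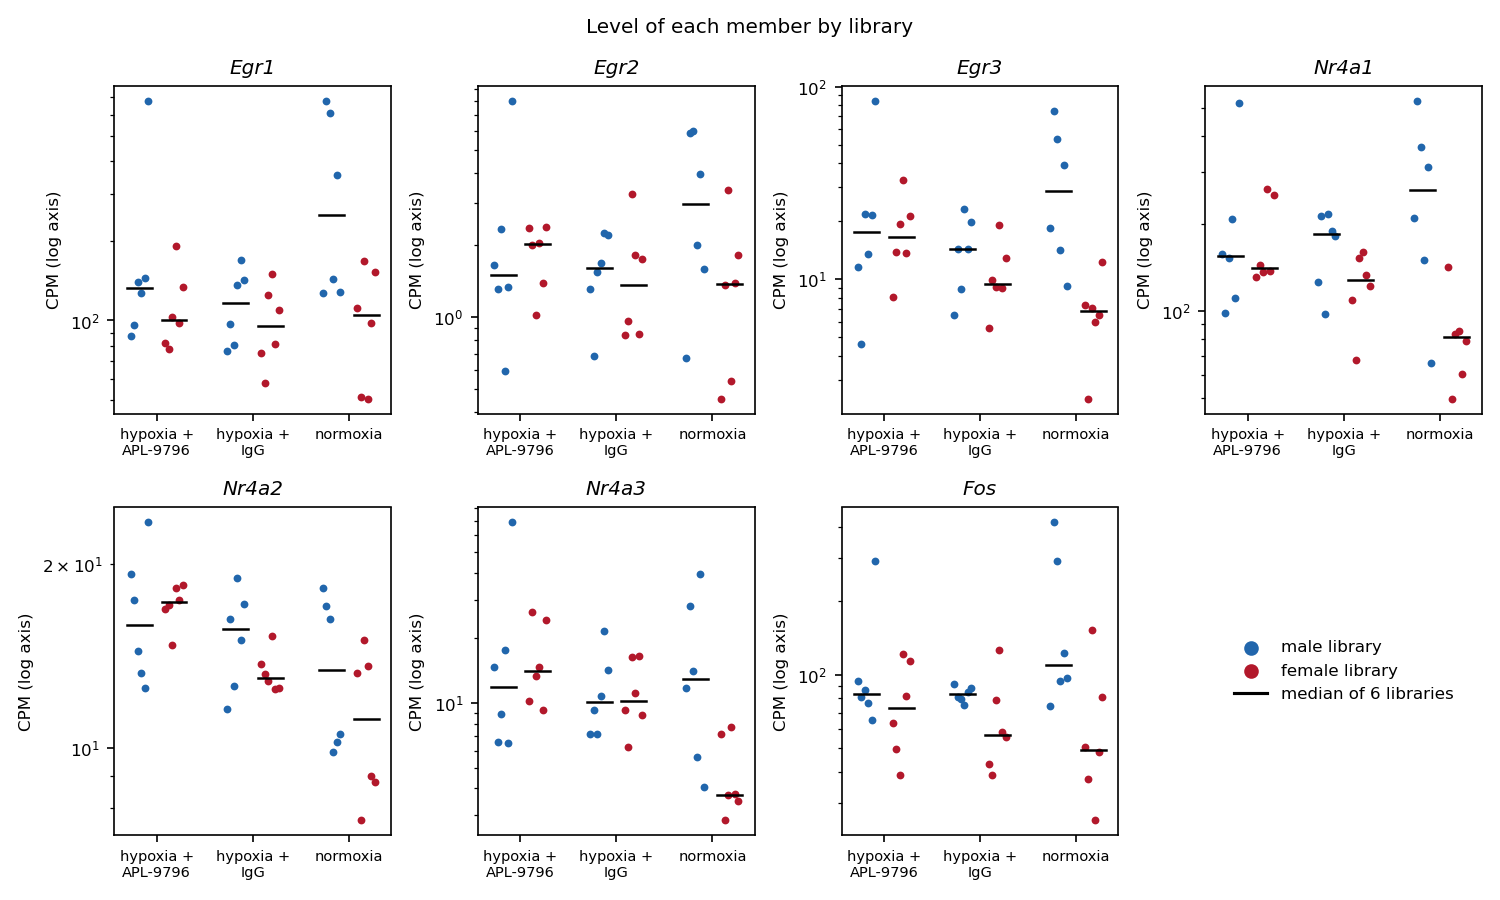
Level of each tested member in CPM (log axis) in every library, by arm and sex, with the median of 6 libraries as a bar. For Egr1, male APL-9796 library 6 and male normoxic libraries 2, 3 and 5 stand between 356 and 678 CPM and all other libraries at or below 191 CPM, while the Nr4a2 points lie within 7.64 to 23.3 CPM.

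The first comparison asked whether the antibody against ZIP12 changed the members in hypoxic lungs. All 7 members had a positive log2 fold change in APL-9796 against IgG libraries, with a median of 0.44 against 0.0042 over all genes tested, and 0 of 7 passed an FDR of 0.05 (edgeR's quasi-likelihood test, Benjamini-Hochberg adjusted over 15570 genes). The share of all genes past that threshold was 0%. At an unadjusted p under 0.05, 2 of 7 members and 4.02% of all genes (626 genes) were counted, and by limma-voom and DESeq2 0 members were called (DESeq2 called 1 gene in all). The 2 members were Egr3, with a log2 fold change of 0.79 ± 0.36 (SE, FDR = 0.967) and 9 of 12 APL-9796 libraries above the mean of the IgG libraries of their sex, and Nr4a2, with 0.24 ± 0.12 (FDR = 0.967) and 9 of 12 libraries.

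Much of this size came from 1 library. Without male APL-9796 6 the log2 fold change was 0.38 for Egr3 (FDR = 0.986), against 0.79 with it, and 0.19 for Nr4a2 (FDR = 0.986), against 0.24. Without it 0 of 7 members had an unadjusted p under 0.05, against 4.20% of all genes. For the other 5 members the values with that library were 0.35 to 0.68 and without it 0.033 to 0.22. Male Egr2, Nr4a1, Nr4a3 and Fos then had log2 fold changes between -0.22 and -0.039. That library enters the female comparisons only through the shared estimate of spread and the scaling. Female Nr4a2 had 14.7 to 18.5 CPM in APL-9796 libraries and 12.5 to 15.2 CPM in IgG libraries, a log2 fold change of 0.36 ± 0.17 (FDR = 0.848) with 6 of 6 libraries above the IgG mean. Female Nr4a1 was above the IgG mean in 6 of 6 APL-9796 libraries too (0.51 ± 0.38, FDR = 0.848). The antibody effect did not differ between males and females past the threshold for any member (interaction FDR 0.963 to 0.986, 0 of 7 at an unadjusted p under 0.05, against 4.40% of all genes). Within each sex 0 of 7 members and 0% of all genes passed the threshold, and at an unadjusted p under 0.05 there were 0 of 7 in males (3.83% of all genes) and 1 of 7 in females (5.05%). The comparisons within males and within females were added after the data had been seen.

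Chronic hypoxia with IgG against normoxia moved 1947 of 15570 genes past an FDR of 0.05 (12.5%), and 0 of 7 members (edgeR, and likewise DESeq2 and limma-voom). At an unadjusted p under 0.05 there were 1 of 7 members and 25.9% of all genes. Egr1 had the smallest p, with a log2 fold change of -0.81 ± 0.33 (FDR = 0.112), and 9 of 12 IgG libraries lay below the normoxic mean of their sex. The next were Fos at -0.55 ± 0.31 (FDR = 0.264) and Egr2 at -0.47 ± 0.36 (FDR = 0.432). The median log2 fold change of the members was -0.28, against -0.021 over all genes. The spread was wide, and the 95% interval for Egr3 ran from -1.04 to 0.47.

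For most members males and females had values on opposite sides in this comparison, with a positive log2 fold change for 1 of 7 members in males and for 6 of 7 in females. Nr4a2 was positive in both (0.16 in males and 0.23 in females) and Egr1 negative in both. Female Egr2 (0.097 ± 0.52) and Fos (0.025 ± 0.44) lay near 0. Within each sex 0 of 7 members passed the threshold, against 3.10% of all genes in males and 15.5% in females, and at an unadjusted p under 0.05 there were 4 of 7 (13.1% of all genes) in males and 1 of 7 (31.6%) in females. Male IgG libraries had 76.3 to 169 CPM of Egr1, and male normoxic libraries 127 to 678 CPM, a log2 fold change of -1.54 ± 0.48 (FDR = 0.0758) with 6 of 6 IgG libraries below the normoxic mean. Male Egr3 was at -1.25 ± 0.51 (FDR = 0.238) and male Fos at -1.13 ± 0.44 (FDR = 0.207), each with 6 of 6 libraries below. These ranges overlapped, since only male normoxic 2, 3 and 5 stood above all the IgG libraries for Egr1. Without male APL-9796 6, which enters through the shared estimate of spread, male Egr1 passed the threshold (-1.52, FDR = 0.0195), as it did with DESeq2 (-1.53, FDR = 0.0282).

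Female Nr4a3, whose groups overlapped little, ran from 6.24 to 16.5 CPM with IgG and from 2.85 to 7.71 CPM in normoxia, a log2 fold change of 1.203 ± 0.54 (FDR = 0.122) with 6 of 6 libraries above the normoxic mean. Female Egr3 was at 0.69 ± 0.54 (FDR = 0.391), and Egr1 at -0.076 ± 0.47 (FDR = 0.928). The difference between the sexes, male minus female, was -1.94 ± 0.74 for Egr3, -1.75 ± 0.74 for Nr4a3, -1.25 ± 0.54 for Nr4a1 and -1.46 ± 0.66 for Egr1. None of the 7 interactions passed the FDR threshold, against 0.0128% of all genes, the smallest FDR being 0.207 for Egr3, and at an unadjusted p under 0.05 they were 4 of 7 members and 15.9% of all genes.

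Hypoxia with APL-9796 against normoxia called 1 of 7 members, against 18.01% of all genes (2804 of 15570) in either direction and 9.08% on the higher side. That member was Nr4a2, 1.36-fold higher with a log2 fold change of 0.44 ± 0.12 (FDR = 0.00898), and 11 of 12 APL-9796 libraries lay above the normoxic mean of their sex. Nr4a3 was 2.01-fold higher and just missed the threshold (1.01 ± 0.37, FDR = 0.0528, 9 of 12 libraries). Egr3 was at 0.51 ± 0.36 (FDR = 0.346), Nr4a1 at 0.35 ± 0.27 (FDR = 0.393), and Egr1, Egr2 and Fos lay between -0.28 and -0.032. These 5 values moved without male APL-9796 6, to 0.11 for Egr3 and 0.11 for Nr4a1, and to -0.68 for Egr1 (FDR = 0.0875), -0.43 for Egr2 and -0.45 for Fos, none of them past the threshold. Because both hypoxic arms are set against the same normoxic libraries, their values are given side by side only: Nr4a2 had 0.44 with APL-9796 and 0.20 ± 0.12 (FDR = 0.312) with IgG.

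The Nr4a2 call held without each of the 36 libraries in turn (log2 fold change 0.40 to 0.51) and was 0.40 (FDR = 0.0179) without male APL-9796 6. It did not hold in run A alone, where 10 APL-9796 and 9 normoxic libraries gave 0.33 (FDR = 0.108), and it did hold with run as a term of the model (0.40, FDR = 0.0145). Nr4a3 was 0.56 (FDR = 0.208) without male APL-9796 6, and passed the threshold (1.03 to 1.244) when any 1 of 10 other libraries was left out. Those were male APL-9796 2, 3 and 5, female APL-9796 7 and 11, male IgG 5, male normoxic 2 and 5, and female normoxic 7 and 10.

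In females alone the 3 Nr4a genes rose, against a share of 22.6% of all genes past the threshold and 10.1% that were higher. Nr4a3 ran from 9.29 to 26.5 CPM in female APL-9796 libraries and from 2.85 to 7.71 CPM in female normoxic libraries, without overlap, a 3.32-fold difference (log2 1.73 ± 0.54, FDR = 0.0204). Nr4a1 ran from 131 to 263 CPM, against 49.9 to 142 CPM in normoxia, and was 2.11-fold higher (1.08 ± 0.39, FDR = 0.042). Nr4a2 ran from 14.7 to 18.5 CPM, against 7.64 to 15.03 CPM, and was 1.503-fold higher (0.59 ± 0.17, FDR = 0.0125). For Nr4a1 and Nr4a2 the groups overlapped at 1 normoxic library each, female 7 and female 9. Egr3 was at 1.41 ± 0.54 (FDR = 0.056), and all 4 genes were above the normoxic mean in 6 of 6 libraries. Egr3 passed the threshold with DESeq2 (1.40, FDR = 0.0323), without male APL-9796 6 (1.42, FDR = 0.0241), and without any 1 of male APL-9796 2, male normoxic 2 and 6, female APL-9796 7 and female normoxic 12 (1.41 to 1.60, FDR 0.0413 to 0.0481).

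The female results changed with sequencing run, with single libraries and with other settings. Female normoxic Nr4a2 was 13.3, 15.03 and 13.6 CPM in libraries 7, 9 and 10 of run A and 8.999, 8.82 and 7.64 CPM in libraries 11 and 12 of run B and 8 of run C. For Nr4a3, each of the 5 female APL-9796 libraries of run A, at 9.29 to 26.5 CPM, stood above the normoxic libraries, which had 7.18, 3.72 and 7.71 CPM in run A and 3.75, 3.497 and 2.85 CPM in the others. Within run A the log2 fold changes were 1.51 for Nr4a3 (FDR = 0.191), 0.85 for Nr4a1 (FDR = 0.322) and 0.30 for Nr4a2 (FDR = 0.346), with 5 against 3 libraries. With run as a term they were 1.63 (FDR = 0.0559), 0.92 (FDR = 0.122) and 0.47 (FDR = 0.0501), so 0 of 7 members were called. Leaving out 1 library also ended calls. The Nr4a3 call was lost without female APL-9796 8 (1.54, FDR = 0.0504), female normoxic 8 (1.63, FDR = 0.0512) or female normoxic 9 (1.66, FDR = 0.0617). The Nr4a1 call was lost without any 1 of female APL-9796 10 and 12 and female normoxic 8, 9, 10, 11 and 12 (0.93 to 1.10, FDR 0.0506 to 0.1). The Nr4a1 call was also lost with no filter on low counts (1.08, FDR = 0.0667), with only the 2 arms compared (1.08, FDR = 0.0815) and without the 6 libraries that stood apart in earlier results (0.96, FDR = 0.185). The Nr4a3 call was lost with limma-voom (1.51, FDR = 0.0945) and without those 6 libraries (1.52, FDR = 0.0872).

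Cell type markers moved along with this comparison. In females, 4 of 4 smooth muscle markers tested, 4 of 8 endothelial and 3 of 6 fibroblast and pericyte markers were higher with APL-9796 than in normoxia, as was 1 of 3 macrophage and monocyte markers. Lower were 3 of 5 alveolar type II markers, 2 of 3 platelet, 2 of 7 T and NK cell, 1 of 4 airway secretory and 1 of 6 alveolar type I markers, and also 1 of the endothelial and 1 of the fibroblast and pericyte markers. The summed level of the 4 smooth muscle markers with a row ran from 219 to 453 CPM in female APL-9796 libraries and from 81.2 to 253 CPM in female normoxic libraries, and that of the 8 endothelial markers from 3938 to 4595 CPM with APL-9796 and from 3143 to 4129 CPM in normoxia. None of these 12 markers was at 0 in any library. The 5 alveolar type II markers with a row summed to 14673 to 17717 CPM in female APL-9796 libraries and 16685 to 42171 CPM in female normoxic libraries. Female normoxic 8 and 9 were highest there, at 31443 and 42171 CPM, and female normoxic 12 was next at 22711 CPM. Over all genes in this comparison, 10.1% were higher and 22.6% were called in either direction. In bulk tissue a change in the share of a cell type and a change of RNA per cell cannot be told apart, and the part of these markers in the Nr4a values was not tested.

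In males the same comparison called 0 of 7 members with edgeR, DESeq2 and limma-voom, against 4.19% of all genes, and at an unadjusted p under 0.05 0 of 7 against 13.8%. Nr4a2 was at 0.29 ± 0.17 (FDR = 0.493) and Nr4a3 at 0.29 ± 0.50 (FDR = 0.895), while Egr1 was at -0.68 ± 0.47 (FDR = 0.602). Without male APL-9796 6, male Egr1 passed the threshold at -1.49 (FDR = 0.0271), male Nr4a3 turned to -0.62 (FDR = 0.572), and 5 of 7 members had an unadjusted p under 0.05, against 15.5% of all genes. The difference between the sexes was -1.47 ± 0.54 for Nr4a1 (FDR = 0.212) and -1.79 ± 0.73 for Egr3 (FDR = 0.241), and 0 of 7 members passed the threshold (0% of all genes), with 2 of 7 and 15.9% at an unadjusted p under 0.05. Without male APL-9796 6 these interactions were larger, at -2.61 for Egr3, -2.37 for Nr4a3 and -1.97 for Nr4a1 (FDR = 0.153 for each). In that setting 6 of 7 members had an unadjusted p under 0.05, against 16.2% of all genes, and 0 of 7 passed the FDR threshold.

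**Figure D2:**
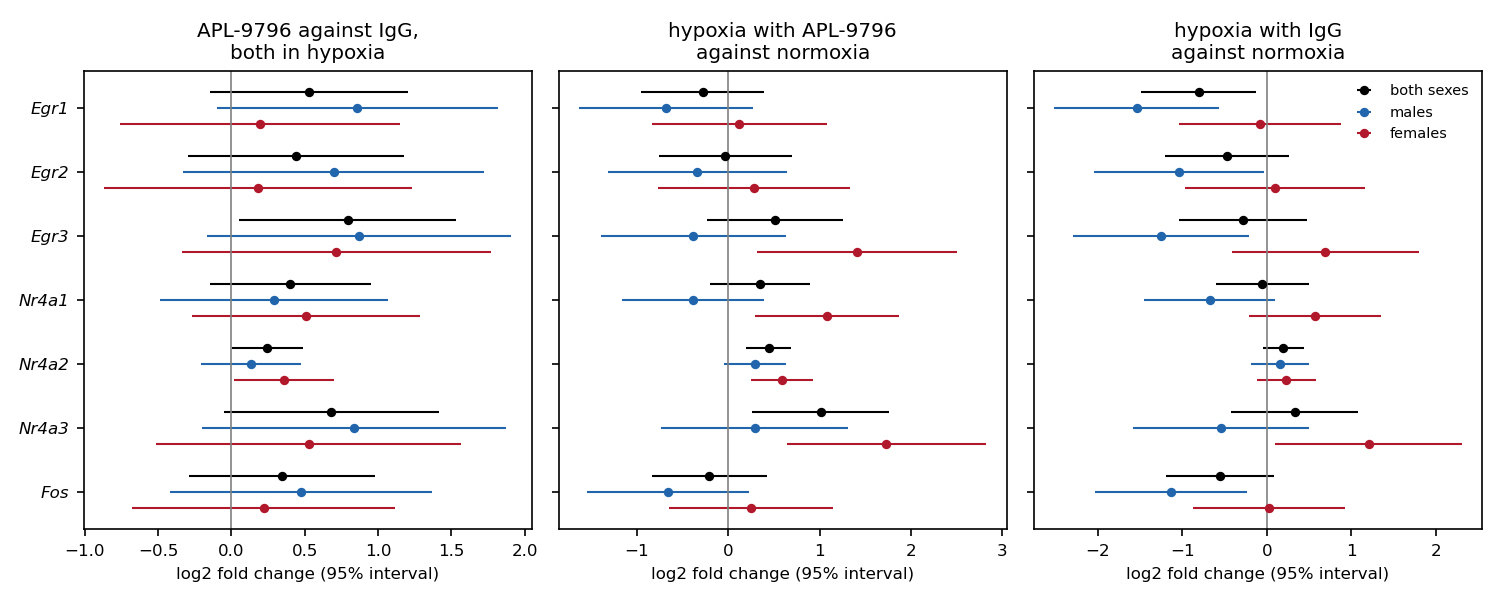
Log2 fold change of each tested member with its 95% interval in the 3 arm comparisons, for both sexes together, males and females. Intervals in APL-9796 against IgG lie mostly across 0, the male values of Egr1, Egr3 and Fos in IgG against normoxia lie between -1.54 and -1.13, and the female Nr4a values in APL-9796 against normoxia lie between 0.59 and 1.73.

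Averaged over the 3 arms, all 7 members had higher values in males than in females. Within single arms the medians did not all differ that way. The median log2 difference of the members was 0.79, against 0.0050 over all genes. No member passed an FDR of 0.05, against 1.65% of all genes. At an unadjusted p under 0.05 there were 5 of 7 members and 18.8% of all genes. Egr3 was 2.13-fold higher in males (1.09 ± 0.30, FDR = 0.0539), Nr4a1 1.74-fold (0.80 ± 0.22, FDR = 0.0559), Egr1 1.91-fold (0.94 ± 0.27, FDR = 0.0676) and Fos 1.72-fold (0.79 ± 0.25, FDR = 0.0922). Nr4a2 was at 0.14 ± 0.10 (FDR = 0.434). Without male APL-9796 6 these values were 0.81 for Egr3 (FDR = 0.0802), 0.62 for Nr4a1 (FDR = 0.0761), 0.65 for Egr1 (FDR = 0.101) and 0.60 for Fos (FDR = 0.147). Nr4a3 was then at 0.41 and Egr2 at 0.28, against 0.72 and 0.56 with that library, and without the 6 libraries that stood apart Egr3 was at 0.63 (FDR = 0.218). With run as a term Egr3 was at 0.90 (FDR = 0.1) and Nr4a1 at 0.70 (FDR = 0.085). Egr1 was at 0.84 (FDR = 0.0965) and Fos at 0.64 (FDR = 0.161) in that setting. Run A alone, which held more male than female libraries, gave 0.91 for Egr3 (FDR = 0.244) and 0.75 for Egr1 (FDR = 0.306). Nr4a1 was at 0.59 (FDR = 0.32) and Fos at 0.57 (FDR = 0.397) there. Leaving out 1 library gave 0 to 3 calls, all in the same direction: Nr4a1 passed (0.84 to 0.87) without male APL-9796 2 or 5, male normoxic 6 or female normoxic 7, Egr1 without female normoxic 7 (0.94, FDR = 0.048) and Fos without female normoxic 9 (0.94, FDR = 0.0407). Egr3 passed (1.09 to 1.17) without male APL-9796 2 or 4, female APL-9796 10, male IgG 1, female IgG 10, male normoxic 4 or 6, or female normoxic 7. Male normoxic libraries had medians of 28.9 CPM of Egr3 and 261 CPM of Nr4a1, and female normoxic libraries 6.83 and 81.1 CPM. With IgG the male medians were 14.3 and 184 CPM and the female ones 9.45 and 127 CPM. With APL-9796 they lay closer, at 17.6 and 155 CPM in males and 16.6 and 141 CPM in females. In the APL-9796 arm the male median was below the female one for Egr2 (1.498 and 2.02 CPM), Nr4a2 (15.9 and 17.3 CPM) and Nr4a3 (11.8 and 13.995 CPM). It was above the female one for the other members. In the IgG arm it was below for Nr4a3 only (10.03 and 10.20 CPM), and in normoxia for none.

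The spread between libraries was the feature in which most members stood apart from other genes. Within groups of 1 sex and arm, the SD of log2 CPM was 0.92 for Egr3, 0.87 for Nr4a3, 0.86 for Egr2, 0.79 for Egr1, 0.73 for Fos and 0.68 for Nr4a1. These lie at percentiles 95.3 to 98.8 of all genes tested, whose median was 0.25. Nr4a2 was at 0.30, percentile 60.9. A level could differ severalfold between libraries of 1 group: male APL-9796 libraries spanned 4.60 to 84.4 CPM of Egr3, an 18.3-fold range that was 4.74-fold without library 6, whereas Nr4a2 spanned 1.86-fold there and 1.22-fold in female IgG libraries.

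By arm, the SD of Egr1 was 0.83 with APL-9796, 0.49 with IgG and 0.96 in normoxia, and that of Egr3 1.08, 0.63 and 0.98. Each of the 7 members had its smallest SD in the IgG arm, where the median gene also had its smallest (0.21, against 0.23 with APL-9796 and 0.28 in normoxia). These SDs include male APL-9796 6. Without it, the SD of CPM as a share of the mean, sexes pooled, was lower with APL-9796 than with IgG for Egr1, Egr2, Nr4a2 and, barely, Fos. That share stayed higher with APL-9796 for Egr3, Nr4a1 and Nr4a3. For Egr2 it was 35.7% with APL-9796 and 46.7% with IgG, and for Nr4a3 48.4% and 40.6%. A limma test of the absolute deviations from group medians called 0 of 7 members and 0% of all genes in each of the 3 comparisons. At an unadjusted p under 0.05 it counted 0 of 7 members for APL-9796 against IgG (1.77% of all genes), 2 of 7 for IgG against normoxia (4.09%) and 1 of 7 for APL-9796 against normoxia (5.31%). The 2 were Nr4a2, whose mean deviation was smaller by 0.22 ± 0.067 log2 units with IgG than in normoxia (FDR = 0.921), and Fos, smaller by 0.42 ± 0.20 (FDR = 0.921). The 1 was Nr4a2 (smaller by 0.18 ± 0.067 with APL-9796, FDR = 0.832).

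**Figure D3:**
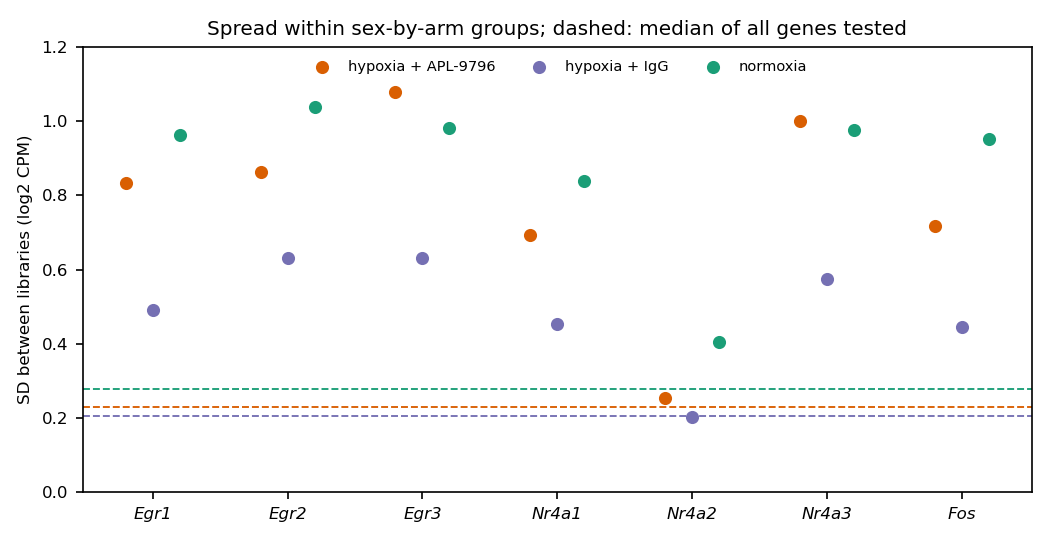
SD of log2 CPM between libraries of the same sex and arm for each tested member, by arm, with the median of all genes tested as dashed lines. Points of 6 members lie between 0.44 and 1.08 and those of Nr4a2 between 0.20 and 0.41, and the IgG point is the lowest for each member. All libraries are included, male APL-9796 6 among them.

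From library to library the deviations of the members were positively correlated, more weakly for Nr4a2. The r of other gene pairs in these libraries were not set beside theirs. Deviations of log2 CPM from the mean of the sex-by-arm group were correlated over 36 libraries for 21 pairs. The permutation tests exchanged libraries across groups, whose spread differed, so their p-values are approximate. Egr1 and Egr3 had Pearson r = 0.86 and Spearman rho = 0.85, Egr1 and Fos 0.85 and 0.77, and Nr4a1 and Nr4a3 0.83 and 0.80 (permutation p = 1e-05 for each, the smallest that 100000 resamples can give, adjusted 2.6e-05 for r). Without the 2 libraries farthest from the median these 3 r were 0.80, 0.78 and 0.76, and in the 26 libraries of run A 0.89, 0.84 and 0.83. The 15 pairs without Nr4a2 had r from 0.40 to 0.86 (adjusted permutation p up to 0.017) and rho from 0.32 to 0.85 (adjusted up to 0.061). Pairs with Nr4a2 were weaker, with r from 0.21 with Egr2 (permutation p = 0.23) to 0.59 with Nr4a1 (adjusted p = 0.00024). Without the 2 farthest libraries r was lower for 20 of 21 pairs and higher for 1, Nr4a2 and Fos (0.47, against 0.45 with them). Some weak relations rested on those libraries, with r of 0.025 for Egr2 and Nr4a2, against 0.21 with them, 0.23 for Egr2 and Nr4a3, against 0.40, and 0.25 for Egr1 and Nr4a2, against 0.42. Others moved less, such as Nr4a2 and Nr4a3 at 0.43, against 0.45.

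**Figure D4:**
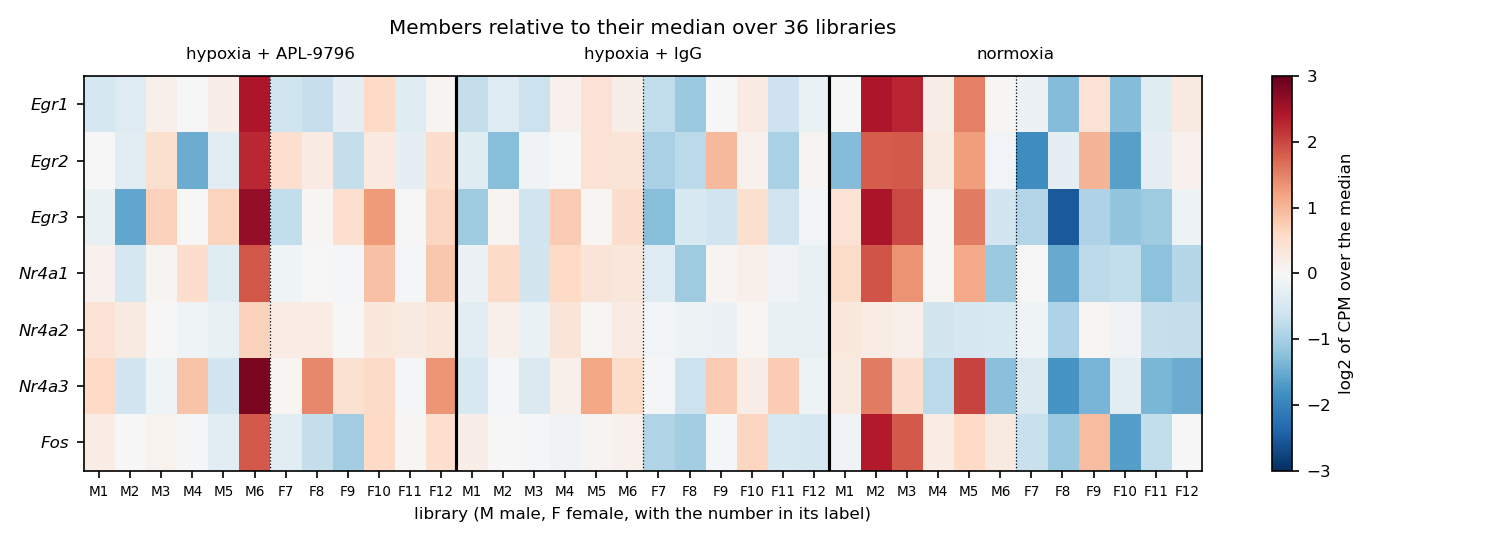
Log2 of each member's CPM over its median of 36 libraries, with libraries as columns (M male, F female, and the number in the label) in the order APL-9796, IgG and normoxia. Male APL-9796 library 6 and male normoxic libraries 2, 3 and 5 are high for most rows, and female normoxic library 8 is the lowest of all libraries for 4 of 7 members.

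Among 8726 genes with a symbol and at least 1 CPM, the 5 whose deviations most resembled those of Egr3 were Egr1 (r = 0.86), Nr4a1 (0.80), Btg2 (0.79), Klf6 (0.78) and Ppp1r15a (0.75). Btg2 is an antiproliferative early gene, Klf6 a Krüppel-like factor and Ppp1r15a (Gadd34) a stress-induced phosphatase subunit. For Nr4a2 they were Dock9 (0.62), Kat2b (0.59), Nr4a1 (0.59), Cdyl2 (0.59) and Arhgap1 (0.58). These r are descriptions over the same 36 libraries, which share depth and run. With run removed, 4 of the 5 remained for Egr3 and 1 of the 5 for Nr4a2.

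The pathway around the members was read from 4 lists, and in APL-9796 against IgG 0 genes of each list were called by edgeR, DESeq2 or limma-voom. At an unadjusted p under 0.05 there were 0 of 16, 0 of 23, 1 of 24 and 1 of 21 genes tested, beside 4.02% of all genes. Of 16 other immediate early transcription factors tested, 0 were called in IgG against normoxia by edgeR and DESeq2 (1 by limma-voom), beside 12.5% of all genes. At an unadjusted p under 0.05 there were 6 of the 16, beside 25.9% of all genes. In APL-9796 against normoxia 2 were called, beside 18.01% of all genes. Id3, an inhibitor of bHLH factors, was higher (0.47 ± 0.16, FDR = 0.0391) and Tsc22d3 (Gilz), a glucocorticoid-induced gene, was lower (-0.82 ± 0.22, FDR = 0.00712). Without any 1 of 8 libraries (male APL-9796 4, female APL-9796 8 and 9, male normoxic 3, 4 and 5, and female normoxic 7 and 12) only 1 was called, and other settings gave 1 to 3. The list's median log2 fold change was 0.11 there and -0.016 in IgG against normoxia, beside -0.022 and -0.021 over all genes.

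Feedback regulators, which damp the signals that induce the members, were called in both directions. Dusp6, the phosphatase of ERK, averaged 138 ± 14.4 CPM with APL-9796, 137 ± 16.6 CPM with IgG and 210 ± 27.3 CPM in normoxia (SD, n = 12 each), and fell in IgG against normoxia by 0.62 on the log2 scale (FDR = 5.6e-08) with 12 of 12 libraries below the normoxic mean. In that comparison Dusp1 (-0.69 ± 0.16, FDR = 0.00217) and the salt-inducible kinase Sik1 (-0.60 ± 0.16, FDR = 0.0115) also fell and Dusp4 rose (0.33 ± 0.11, FDR = 0.0497), 4 of 23 tested, beside 12.5% of all genes (2 to 5 in other settings). With APL-9796, 5 of 23 were called, beside 18.01% of all genes (4 to 9 in other settings, 9 with limma-voom): Dusp6 (-0.60 ± 0.072), Dusp1 (-0.68 ± 0.16) and Gadd45a (-0.29 ± 0.082, FDR = 0.0115) were lower, Dusp4 (0.35 ± 0.11, FDR = 0.027) and Spred2 higher. The list's medians were 0.0014 with APL-9796 and -0.029 with IgG.

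Of 24 secreted and effector products, 3 were called with IgG against normoxia and 5 with APL-9796, beside 12.5% and 18.01% of all genes. The 5 became 3 with a replicate block, with only the 2 arms compared or in run A alone, 7 with limma-voom, and 8 without male normoxic 2 or female normoxic 10 (4 to 8 with 1 library left out). Edn1, the vasoconstrictor endothelin-1, averaged 63.0 ± 11.2 CPM with APL-9796, 65.8 ± 14.4 CPM with IgG and 159 ± 49.0 CPM in normoxia, a log2 fold change of -1.34 ± 0.14 with APL-9796 (FDR = 8.66e-09) and -1.28 ± 0.14 with IgG (FDR = 2.59e-08), with 12 of 12 libraries below in each. Plk2, a stress-responsive kinase, was higher in both (0.53 ± 0.12, FDR = 0.00139, and 0.50 ± 0.12, FDR = 0.00334), as were Has1 with IgG (0.99 ± 0.28, FDR = 0.0134) and Pim1 (0.25 ± 0.079, FDR = 0.0222), Gem (0.43 ± 0.14, FDR = 0.0252) and Lif with APL-9796. The list's medians were 0.085 with APL-9796 and 0.038 with IgG.

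Of 21 upstream factors, kinases and partners, 0 were called with IgG against normoxia by edgeR and DESeq2 (2 by limma-voom), beside 12.5% of all genes. At an unadjusted p under 0.05 there were 4 of the 21, beside 25.9% of all genes. With APL-9796 against normoxia 5 were called, beside 18.01% of all genes. The 5 became 2 with run as a term, with no filter on low counts or with only the 2 arms compared, and 0 in run A alone. With 1 library left out it was 2 to 5, and any 1 of 11 libraries moved it by over 1.5 times (male APL-9796 1, 2 and 5, female APL-9796 9, 10 and 11, male normoxic 2 and 6, and female normoxic 8, 9 and 11). Elk3, a partner of SRF, was higher by 0.26 ± 0.076 (FDR = 0.0156), and Mef2d (0.23 ± 0.072, FDR = 0.0254), the CREB coactivator Crtc2 (0.13 ± 0.048, FDR = 0.0468) and the SRF coactivator Mrtfa were higher as well, while the CREB-family factor Atf1 was lower (-0.15 ± 0.048, FDR = 0.0244). The list's medians were 0.012 with APL-9796 and -0.017 with IgG. Between males and females, 2 of 16 other early factors (Jun and Ier2) and 1 of 23 feedback regulators (Gadd45g) were called, all higher in males. So were 2 of 24 effector products (Ccn2 and Rhob), and 0 of 21 upstream factors were called. Beside these, 1.65% of all 15570 genes were called, 158 of them higher and 99 lower in males.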

How the data were processed

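Lung RNA was sequenced in 36 libraries. The deposited table holds whole-number read counts per gene, not normalized by the authors. A deposited information table holds other descriptors, among them read file names, and its arm and sex matched the labels in 36 of 36 libraries. Pool and flow cell were inferred from parts of those file names, and no column names them. Per the submitters' processing notes the authors used DESeq2 1.24.0. The sources used here give neither aligner nor counting tool, build or strand setting, so overlapping genes, antisense ones included, may share reads. The table has 2 lines without a gene, 1 empty and 1 of totals listed at 0, with 0% of the gene counts, and they stayed out. Between 2 libraries of a group the chi-square of the counts, divided by the number of genes, was at least 3.87, more than sampling noise gives.

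Counts entered the robust quasi-likelihood test of edgeR 4.0.16 (R 4.3.3), after filterByExpr and TMM scaling, in 1 model of 6 sex-by-arm groups, both sexes weighted equally, with Benjamini-Hochberg adjustment (FDR, threshold 0.05) over 15570 genes. Spread was tested with limma 3.58.1 on absolute deviations of log2 CPM (prior count 2) from group medians. Correlations used scipy 1.17.1 with permutation tests. A library counts as above or below the mean of the other arm on log2(CPM + 0.5). Intervals on pooled counts are exact and cover counting error only. A count of 0 allows up to 3 counts. Tests were tried on simulated data first.

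The members and gene lists were chosen with earlier results of these data known. Named by rule were all members, up to 4 genes per list and comparison with the smallest p-values, and the 5 genes most like Egr3 and Nr4a2. Spred2, Lif, Mrtfa and the list genes named for males against females were added after their values were seen. Alternatives were RLE size factors, 2 other filters, DESeq2 1.42.0, limma-voom with quality weights, the compared arms alone, a replicate block, sequencing run as a term, run A alone, 6 libraries left out together and each library left out in turn. Promoter windows are RefSeq (GRCr8). Current symbols came from a RefSeq gene table of that assembly, used for names.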

Additional observations from a re-analysis of the deposited data

Results flagged for a closer look

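Of 42 groups of 6 libraries tested (7 members, 6 groups of sex and arm), 6 held a library whose gap in CPM to the nearest other exceeded Dixon's 95% critical value. Chance gives about 1 in 20 groups only for independent, normally distributed values. The members varied together and CPM was not on a log scale, so the 6 libraries singled out cannot be weighed against that rate. All 6 were the same library, male APL-9796 6, which was the highest of its group for 7 of 7 members. It had 676 CPM of Egr1 where the next library of the group had 145 CPM, 8.02 CPM of Egr2 (next 2.34 CPM), 84.4 CPM of Egr3 (next 21.8 CPM), 521 CPM of Nr4a1 (next 207 CPM), 68.8 CPM of Nr4a3 (next 17.6 CPM) and 290 CPM of Fos (next 94.7 CPM). Nr4a2 in that library, at 23.3 CPM against a next value of 19.2 CPM, was not singled out. The library came from run A with 11.1 M counts. Its summed smooth muscle markers (348 CPM) were the lowest of the 6 libraries of its group, and its endothelial markers (4311 CPM) lay within their range of 4267 to 5329 CPM. Its macrophage and monocyte markers (496 CPM) and ciliated markers (131 CPM) were the highest of the group. Its adipocyte markers (5.11 CPM) were the lowest, and the remaining marker sums lay within the range of the group. The part of cell composition in these values was not tested.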

How the results depend on the processing

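Of the members called in APL-9796 against normoxia, Nr4a2 over both sexes lost its call in 1 of 10 other settings, female Nr4a1 in 6, female Nr4a3 in 4 and female Nr4a2 in 2. For single members, most of them never called, 715 values under other settings and 3185 with 1 library left out kept direction and side, 6 and 32 newly passed, and 13 and 10 no longer passed. The cause of these changes was not tested beyond the construction of each setting, and run A alone has fewer libraries. With a filter of 1 CPM in 12 libraries or with DESeq2, 2 members passed in APL-9796 against normoxia (Nr4a2 and Nr4a3), and in run A alone 0. In all genes, APL-9796 against IgG had 1 call with DESeq2 and 1 without the 6 libraries that stood apart in earlier results (male APL-9796 5 and 6, male IgG 6, female IgG 11, female normoxic 8 and 9), and IgG against normoxia had 725 in run A alone. In female APL-9796 against normoxia, 0 members passed with run as a term, 0 in run A alone and 1 (Nr4a2) without the 6 libraries. In males Egr1 alone passed with DESeq2 in IgG against normoxia (1 member), and without the 6 libraries in both comparisons with normoxia (1 member each). With 1 library left out, the members called ran from 1 to 2 in APL-9796 against normoxia, from 1 to 4 in females there, from 0 to 1 in males there and in IgG against normoxia, and from 0 to 3 between the sexes.

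The labels do not say whether equal replicate numbers pair animals. Same-numbered libraries had correlations of -0.22 to 0.25, 9 of 36 pairs were over 0.1, and 9 of 36 libraries went best with their own number. Correlations of expression cannot decide whether animals were paired by cage or handling. A replicate block left 1 member called in APL-9796 against normoxia and 0 in the other arm comparisons, called 1808 genes in IgG against normoxia, and in females ended the Nr4a1 call (1.10, FDR = 0.0669). It turned the Egr3 interaction of APL-9796 against IgG to -0.071. It could not be fitted for males against females, whose numbers differ.

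Directions that turned were all of values far from the threshold (FDR 0.567 or more outside the settings that leave out 1 library). With limma-voom, values were, for female APL-9796 against IgG Egr2 -0.0087, for IgG against normoxia Egr2 0.0046, Nr4a1 0.12, for female IgG against normoxia Egr1 0.012, for APL-9796 against normoxia Egr2 0.29, Fos 0.14. With run as a term, values were, for female IgG against normoxia Fos -0.011, for female APL-9796 against normoxia Egr1 -0.082. In run A alone, values were, for female APL-9796 against IgG Egr1 -0.10, Egr2 -0.0502, Fos -0.17, for IgG against normoxia Egr3 0.00089, Nr4a3 -0.042, for female IgG against normoxia Egr1 0.22, Nr4a2 -0.0058, for the sex interaction of IgG against normoxia Nr4a2 0.19. Likewise, values were, for APL-9796 against normoxia Egr2 0.0299, for the sex interaction of APL-9796 against normoxia Nr4a2 0.065, for the spread in APL-9796 against IgG Nr4a2 -0.013. Without the 6 libraries, values were, for male APL-9796 against IgG Egr3 -0.039, Nr4a1 -0.12, for the sex interaction of APL-9796 against IgG Egr1 -0.12, Egr2 -0.012, Egr3 -0.69, Nr4a3 -0.52, Fos -0.13, for female IgG against normoxia Egr1 0.048, for APL-9796 against normoxia Egr3 -0.068. Likewise, values were, for male APL-9796 against normoxia Nr4a3 -0.47. With deviations from group means, values were, for the spread in APL-9796 against normoxia Nr4a3 -0.018.

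With 1 library left out, the log2 values of results that turned at least once ranged as follows. For male APL-9796 against IgG these were Egr2 -0.11 to 0.88, Nr4a1 -0.22 to 0.44, Nr4a3 -0.091 to 1.09, Fos -0.039 to 0.60. For female APL-9796 against IgG these were Egr1 -0.022 to 0.34. For the sex interaction of APL-9796 against IgG these were Egr1 -0.16 to 0.89, Egr2 -0.30 to 0.71, Egr3 -0.68 to 0.42, Nr4a3 -0.62 to 0.56, Fos -0.26 to 0.44. For IgG against normoxia these were Nr4a1 -0.15 to 0.11. For female IgG against normoxia these were Egr1 -0.22 to 0.14, Egr2 -0.20 to 0.67, Fos -0.26 to 0.51. For the sex interaction of IgG against normoxia these were Nr4a2 -0.18 to 0.0397. For APL-9796 against normoxia these were Egr2 -0.43 to 0.26, Fos -0.45 to 0.037. For male APL-9796 against normoxia these were Egr3 -1.20 to 0.0011, Nr4a3 -0.62 to 0.74. For female APL-9796 against normoxia these were Egr1 -0.091 to 0.33. For the spread in APL-9796 against IgG these were Egr1 -0.12 to 0.11, Egr2 -0.13 to 0.14, Nr4a2 -0.0086 to 0.059. For the spread in APL-9796 against normoxia these were Egr3 -0.16 to 0.12, Nr4a1 -0.26 to 0.0076, Nr4a3 -0.18 to 0.10.

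Depth limits Egr4, with 38 counts in all, and the spread between libraries limits the others: in APL-9796 against IgG the 95% intervals of Egr3 ran from 0.052 to 1.53 and of Egr1 from -0.15 to 1.204. Run, sex and arm are uneven, and the labels do not say whether libraries are separate animals.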
